A study of Mus musculus with 3 samples.

Results

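The solute carrier genes are the transporter genes whose mouse symbols combine Slc, a family number, the letter a and a member number. All genes on the array whose symbol begins in this way were taken, except Slc16a1, from the probes annotated with a single symbol. This gave 133 genes, read by 140 probes, among 6795 genes with a symbol and 8905 features tested in all. They belong to 44 families, which were grouped into 15 classes by the substrates for which each family is known. The naming pattern also takes in Slc9a3r1, a scaffold protein, and Slc4a1ap, a nuclear protein. Both are counted here although neither carries solutes.

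Mouse thymocyte RNA was compared on 3 spotted arrays with 2 dyes each. The first RNA came from purified CD69hi thymocytes of wild-type mice, named B6 in the labels. The second came from unseparated thymocytes of Zap70-/- mice, which lack a kinase of T cell receptor signalling and which the titles call CD69lo. Cd69 and Zap70 themselves were not analysed here. No age, sex or treatment was given for either group. Cy3 marked the CD69hi RNA on the first pair of arrays (1 and 2), while array 3 had the dyes exchanged. Because the RNAs differ in genotype as well as in sorting, and because they hold cells of different stages, fewer cells of a type and less RNA per cell cannot be told apart in any ratio below. Whether separate animals supplied the arrays is not stated, so every p-value measures the spread between arrays, which may be technical.

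Solute carriers move amino acids, sugars, ions, metals, vitamins and other small molecules across the plasma membrane and the membranes of organelles. Some work as exchangers or facilitators and others use the gradient of sodium or protons. In T cells, amino acid and glucose carriers such as Slc7a5 with its heavy chain Slc3a2, Slc1a5 and Slc2a1 are known to increase on activation, when cells grow and divide. Thymocytes at the double-positive stage are mostly small and resting, with a dividing fraction.

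Each value below is the ratio of CD69hi over Zap70-/- RNA, with the deposited values read as log2 of Cy5 over Cy3 and with arrays 1 and 2 multiplied by -1. A positive value thus means a higher signal from CD69hi RNA. The direction is likely rather than stated. In this reading Rag1, which cuts T cell receptor genes in immature thymocytes, lay at -1.37, -1.42 and -0.77 on the 3 arrays, and Cd5, a receptor induced by T cell receptor signals, at 4.26, 5.05 and 4.96. Of 18 measured genes of thymocytes after selection, 17 were higher and 0 lower (limma, p of 0.05 or less after adjustment for all features, and 0 lower before adjustment as well). Of all features, 4.13% were higher and 2.81% lower. The list, which includes Cd5, was drawn up with earlier results of these data known, so its count is not independent support for the direction. As deposited, array 3 correlated with array 1 at -0.25 and with array 2 at -0.40 across probes, and arrays 1 and 2 at 0.61. Were the dyes read the other way, all signs below would be turned. No source used here gives the base of the logarithm, and with a natural logarithm the folds would be larger.

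Most solute carrier genes had ratios near 0, as did most features of the array. Spot brightness was not used, so a ratio near 0 does not show that a transcript was present and unchanged. Of the 133 genes, 3 were higher and 3 were lower in CD69hi RNA and 127 did not pass the threshold, a limma p of 0.05 after adjustment over all 8905 features. The 6 genes are 4.51% of the members, against 6.94% of all features. Those higher make up 2.26%, against 4.13% of all features, and those lower 2.26%, against 2.81%. The share that passed was thus not above that of the whole array in either direction. The 133 means had a median of 0.04, with quartiles of -0.15 and 0.25. Over all features the median was 0.01 and the quartiles -0.23 and 0.24. Before adjustment, p was 0.05 or less for 17 of the 133 members above 0 and 10 below. Of all 8905 features it was so for 1069 above 0 and 1014 below. The counts before adjustment given for classes and lists further on are to be read beside these.

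Only 1 member, Slc43a1, differed 2-fold or more in the same direction on each of the arrays (0.752% of members, against 2.84% of all features). In 112 of 133 genes (84.2%) the mean lay within 0.5 of 0 on the log2 scale, against 80.3% of all features. The 95% interval of the fit, which is not adjusted for the number of genes, lay inside 2-fold in either direction for 109 members (82.0%), against 78.1% of all features. Any larger difference in those genes lies outside that interval, while the other 24 had an interval that reached beyond 2-fold.

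**Figure D1:**
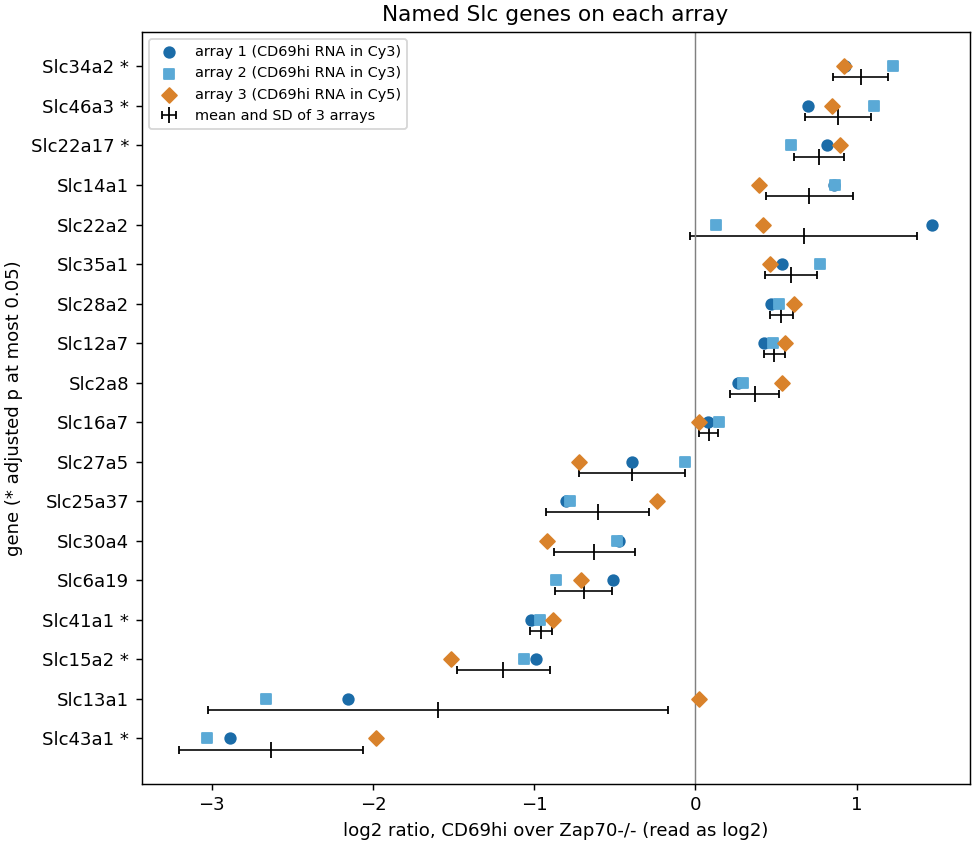
The log2 ratio of CD69hi over Zap70-/- RNA (x axis) is drawn for 18 named genes (y axis), with a marker for each of the 3 arrays and a bar for the mean and SD. The 6 genes with an asterisk passed. Among these genes Slc43a1 has the lowest ratio on each array, and Slc13a1 is low on arrays 1 and 2 and near 0 on array 3.

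Slc43a1 encodes LAT3, a facilitative transporter of leucine and other large neutral amino acids. It had log2 ratios of -2.89, -3.03 and -1.98, the lowest mean of all members. All 3 values lie far below 0, with the value of array 3 nearest to it. The mean of -2.63 ± 0.57 (SD, n = 3) corresponds to a 6.20-fold lower signal in CD69hi RNA (limma adjusted p = 0.014, 95% interval -3.28 to -1.99). The gene passed with any array left out (limma adjusted p = 0.038 without array 1, 0.025 without array 2 and 0.026 without array 3). Another probe, annotated with both D930003E18Rik and Slc43a1 and so not counted as a member, lay at -2.10, -0.55 and -0.54. It shares the direction on all 3 arrays but is smaller, at -1.06 ± 0.90 (SD, n = 3), and did not pass (limma adjusted p = 0.17).

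The 250 bases before the start of Slc43a1 are shown because this gene had the lowest mean ratio of the members, and those of Slc34a2 because it had the highest. Both are the RefSeq sequences of the GRCm38.p6 build, at chr2:84840073-84840322 on the plus strand and chr5:53049103-53049352 on the plus strand. Capitals mark matches, on either strand, to 6 motifs. These are the E-box CACGTG, the AP-1 sites TGACTCA and TGAGTCA, the NBRE site of Nr4a receptors AAAGGTCA, the E protein site CAGGTG, the Runx site TGTGGT and the GC box GGGCGG.
Slc43a1: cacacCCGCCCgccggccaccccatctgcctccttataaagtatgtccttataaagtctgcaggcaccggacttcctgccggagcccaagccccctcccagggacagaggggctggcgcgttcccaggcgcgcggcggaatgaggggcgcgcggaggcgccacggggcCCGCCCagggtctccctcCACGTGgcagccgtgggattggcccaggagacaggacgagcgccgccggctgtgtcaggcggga
Slc34a2: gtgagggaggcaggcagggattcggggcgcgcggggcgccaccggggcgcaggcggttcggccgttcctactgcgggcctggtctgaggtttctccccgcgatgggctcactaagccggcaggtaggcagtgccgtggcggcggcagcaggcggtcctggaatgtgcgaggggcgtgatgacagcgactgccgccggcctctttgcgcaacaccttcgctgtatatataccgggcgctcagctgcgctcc

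The Slc43a1 window held an E-box starting 64 bases before the start and GC boxes starting 82 and 245 bases before it. None of the 6 motifs was found in the Slc34a2 window. RefSeq windows were found for 110 of the 133 genes, 154 windows in all. The E-box stood in 19 of these (12.3%), against 6.02% of all 32851 windows, and the GC box in 81 (52.6%), against 32.7%. The AP-1 sites were present in 5 (3.25%, against 4.46%), the NBRE site in 3 (1.95%, against 1.34%), the E protein site in 25 (16.2%, against 17.2%) and the Runx site in 25 (16.2%, against 14%). Among the 6 genes that passed, the E-box was in the window of Slc43a1 alone, and the GC box was in those of all 3 lower genes and of 1 of the 3 higher genes. A match of letters is not evidence that a factor binds there.

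The other genes that were lower in CD69hi RNA carry peptides and magnesium. Slc15a2 encodes PEPT2, a proton-coupled importer of di- and tripeptides, and had log2 ratios of -0.99, -1.06 and -1.52. The mean was -1.19 ± 0.29 (SD, n = 3), a 2.28-fold lower signal (limma adjusted p = 0.029). Slc41a1, a magnesium transporter of the plasma membrane, lay at -1.02, -0.97 and -0.88, a narrow range across both dye orientations. Its mean was -0.96 ± 0.07 (SD, n = 3), a 1.94-fold lower signal (limma adjusted p = 0.027). Neither passed without array 1 (limma adjusted p = 0.081 for Slc15a2 and 0.13 for Slc41a1) or without array 2 (limma adjusted p = 0.12 and 0.20). Over all features, 2.81% were lower and 4.13% higher in the same RNA. Of 19 measured cell cycle genes, 7 were lower and 0 higher (limma, 0 higher before adjustment as well), with a list median of -1.37. Of 11 genes of immature double-positive thymocytes, 4 were lower and 1 higher, with a median of -1.05. These lists were drawn up with earlier results known, and their part in the lower carriers was not tested.

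The genes that were higher in CD69hi RNA belong to families known for phosphate, folate and organic ion transport. Slc34a2 encodes the sodium-phosphate cotransporter NaPi-IIb, best known from lung and gut epithelium. Its log2 ratios were 0.93, 1.22 and 0.92, with a mean of 1.02 ± 0.17 (SD, n = 3) and a 2.03-fold higher signal (limma adjusted p = 0.028). Slc46a3, a lysosomal membrane protein related to the proton-coupled folate transporter, had 0.70, 1.11 and 0.85. The mean of 0.88 ± 0.21 (SD, n = 3) was a 1.84-fold higher signal (limma adjusted p = 0.039). Slc22a17, described as a receptor for the siderophore-binding protein lipocalin-2, had 0.81, 0.59 and 0.89, with a mean of 0.77 ± 0.16 (SD, n = 3) and a 1.70-fold higher signal (limma adjusted p = 0.045). All 9 of these array values lie above 0.5.

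None of these 3 calls held in every leave-one-out fit. Without array 1 the limma adjusted p-values were 0.11 for Slc34a2, 0.12 for Slc46a3 and 0.22 for Slc22a17. Without array 2 they were 0.21, 0.30 and 0.24 for the same genes. Without array 3, Slc34a2 passed (limma adjusted p = 0.045) and Slc46a3 and Slc22a17 did not (0.062 and 0.061). Slc46a3 also missed the threshold when the arrays were scaled to the same spread (limma adjusted p = 0.0501). The means themselves moved little, from 0.93 to 1.08 for Slc34a2, from 0.77 to 0.98 for Slc46a3 and from 0.70 to 0.85 for Slc22a17 across these 3 fits.

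Markers of myeloid cells differed in both directions in the same RNA. The shares of all features were 4.13% higher and 2.81% lower. Of 27 genes of macrophages, dendritic cells and granulocytes measured of 35 listed, 13 were higher and 1 lower, with a median of 1.05, among them the lysozyme Lyz2 at 2.51 ± 0.08 (SD, n = 3). The granulocyte genes S100a8, S100a9, Camp, Ltf and Mpo were below 0 on all 3 arrays, with means of -0.86, -1.98, -1.14, -0.49 and -0.31, and of these S100a8 alone passed. Ratios give no level in either RNA, so the amount of myeloid RNA is unknown, and its part in the 3 higher carriers was not tested. Slc11a1, which encodes the metal transporter NRAMP1 of macrophage phagosomes, had 0.40, 0.44 and -0.16 and did not pass (limma adjusted p = 0.50). Of 9 erythroid genes 0 passed (limma; before adjustment, 1 above and 0 below 0), with a median of 0.05, and Slc4a1, the anion exchanger of red cells, had a mean of 0.08 ± 0.42 (SD, n = 3). Of 9 B cell genes 1 was higher, of 9 NK and cytotoxic genes 2 were higher and 1 lower, and of 13 genes of thymic stroma 0 passed (limma; before adjustment, 0 above and 2 below 0).

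The threshold fell between Slc22a17 and Slc6a19. Slc6a19, a sodium-dependent carrier of neutral amino acids best known from gut and kidney, had log2 ratios of -0.51, -0.86 and -0.71 and the next lowest p (limma adjusted p = 0.060). The next were Slc39a13 (0.59, limma adjusted p = 0.075), Slc14a1 (0.71, 0.077), Slc35a1 (0.59, 0.079), Slc28a2 (0.53, 0.083) and Slc39a11 (-0.52, 0.084). Each of these 6 genes had the same sign on all 3 arrays.

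**Figure D2:**
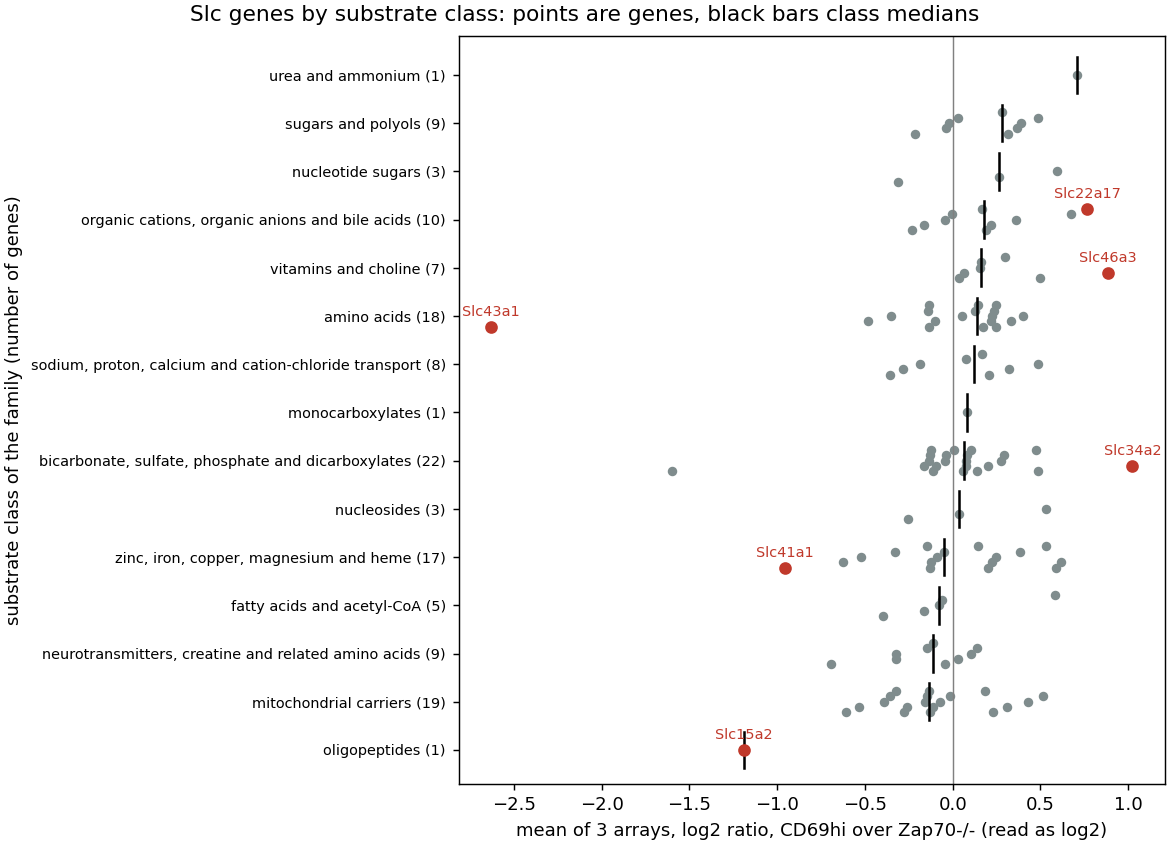
Each point is the mean log2 ratio of CD69hi over Zap70-/- RNA of a gene over 3 arrays (x axis), placed by the substrate class of its family (y axis, with the number of genes). Red points passed and carry their symbol, and black bars are class medians, which lie between -0.14 and 0.28 in every class of 3 or more genes.

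The amino acid families held the member with the lowest mean, Slc43a1, while the means of the other 17 genes lay within 0.5 of 0. Of 18 genes, 0 were higher and Slc43a1 alone was lower, while 6.94% of all features passed in either direction. The class median was 0.14. Members other than those chosen by the rule in the methods are named from here on to account for each class, after their values were seen. Slc11a1, Slc4a1, Slc39a13 and Slc39a11, given above, were likewise not chosen by that rule. Slc7a5, the light chain LAT1 for large neutral amino acids, had -0.18, -0.51 and 0.30, with a mean of -0.13 ± 0.41 (SD, n = 3). Its heavy chain Slc3a2, known as CD98, had 0.27, 0.13 and 0.26, with a mean of 0.22 ± 0.08 (SD, n = 3). The glutamine carriers Slc1a5 and Slc38a1 lay at -0.14 ± 0.08 and -0.35 ± 0.16 (SD, n = 3 each). None of these 4 passed (limma adjusted p = 0.73, 0.37, 0.57 and 0.22).

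Their intervals are narrow enough to give bounds. The 95% interval of the log2 ratio ran from -0.64 to 0.38 for Slc7a5, from -0.11 to 0.55 for Slc3a2, from -0.47 to 0.19 for Slc1a5 and from -0.71 to 0.00 for Slc38a1. With the values read as log2, a 2-fold difference in either direction lies outside each of these intervals, which are not adjusted for the number of genes. The cationic amino acid carriers Slc7a1 (0.25 ± 0.27) and Slc7a6 (0.24 ± 0.26) did not pass either. The lysosomal carriers Slc66a1 (0.40 ± 0.08) and Slc36a1 (0.23 ± 0.15) were above 0 on all 3 arrays without passing (limma adjusted p = 0.15 and 0.38). The glutamate carrier Slc1a1 was below 0 on all 3, at -0.48 ± 0.10 (SD, n = 3, limma adjusted p = 0.11). The remaining 8 genes of the class had means from -0.14 to 0.33.

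Genes that sense amino acids or respond to their lack were measured beside these carriers. Of 19 measured of 37 listed, 0 were higher and 1 was lower (limma, with 1 above and 7 below 0 before adjustment), with a median of -0.25. Among all features 4.13% were higher and 2.81% lower. The lower gene was Atf5, a transcription factor of the amino acid and mitochondrial stress response, at -0.99, -0.86 and -0.87 with a mean of -0.91 ± 0.07 (SD, n = 3, limma adjusted p = 0.030). Its relative Atf4, the main factor of that response, had a mean of 0.15 (limma adjusted p = 0.58). Myc, which drives several amino acid carriers in activated T cells, had a mean of -0.65 and did not pass (limma adjusted p = 0.089).

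**Figure D3:**
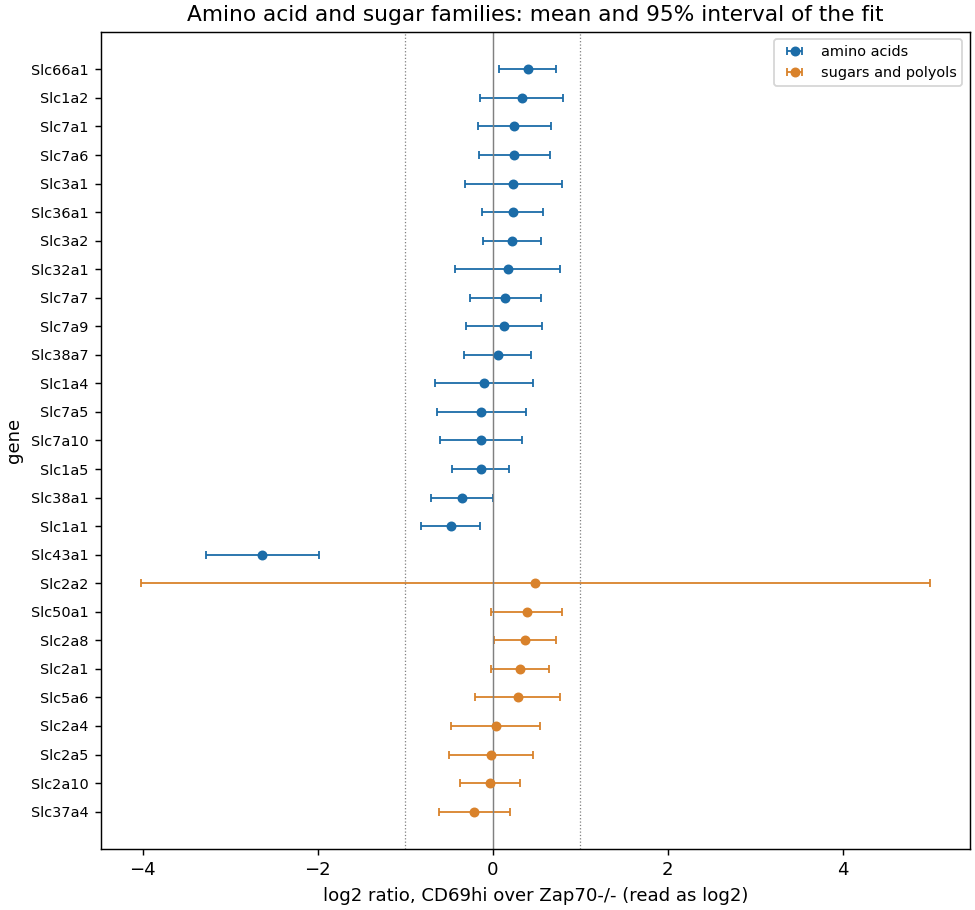
The mean log2 ratio of CD69hi over Zap70-/- RNA with its 95% interval from the fit (x axis) is drawn for the 18 genes of amino acid families and the 9 of sugar families (y axis). Dotted lines stand at a 2-fold difference. Slc43a1 lies wholly beyond 2-fold, Slc2a2 has an interval that crosses both dotted lines, and the other 25 intervals lie within 2-fold.

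In the sugar families 0 of 9 genes passed, against 6.94% of all features (limma, with 1 above and 0 below 0 before adjustment). Classes of this size cannot show a share below that. The class median was 0.28. Slc2a1, the glucose transporter GLUT1, had 0.40, 0.27 and 0.27, above 0 on all 3 arrays. Its mean was 0.31 ± 0.07 (SD, n = 3, limma adjusted p = 0.23), with a 95% interval from -0.02 to 0.64. Slc2a8, the intracellular glucose transporter GLUT8, had the largest moderated t of the class, with 0.27, 0.30 and 0.54 (limma adjusted p = 0.20). Slc2a2, the GLUT2 of liver and pancreas, had 3.47, -4.81 and 2.80. Array 2 opposes the others, and without it the mean was 3.13 (limma adjusted p = 0.010). Its 3 ratios include a value beyond 4 in size, and no spot intensity was used that could show whether the spot was dim. Slc5a6 of the sodium-glucose family is itself a vitamin transporter, and had a mean of 0.28 ± 0.37 (SD, n = 3).

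Among carriers of zinc, iron, copper, magnesium and heme, Slc41a1 was lower and the other 16 genes did not pass. The share of all features that passed was 6.94%. Before adjustment, p was 0.05 or less for 3 of the 17 genes above 0 and 3 below. The zinc importers of the Slc39 family lay on both sides of 0. Slc39a13, of the Golgi, had 0.74, 0.52 and 0.51 and Slc39a14, of the plasma membrane, 0.33, 0.66 and 0.60, while Slc39a11 had -0.50, -0.51 and -0.55. Slc39a8, a zinc importer described in activated T cells, had 0.11, 0.12 and -1.22, so that array 3 alone was far from 0. The vesicular zinc exporter Slc30a4 had -0.48, -0.49 and -0.92 (mean -0.63 ± 0.25, SD, n = 3, limma adjusted p = 0.093). Slc41a3, a relative of Slc41a1, lay on the other side of 0, at 0.38 ± 0.14 (SD, n = 3, limma adjusted p = 0.18). The difference between these relatives was not tested.

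Slc11a2, the iron transporter DMT1, had a mean of 0.20 ± 0.22 (SD, n = 3), and its 2 probes had means of 0.40 and 0.01. Of 17 other genes of iron, zinc and copper handling, 0 were lower (limma, 0 lower before adjustment as well), with a median of 0.15. In this list 1 gene was higher, against 4.13% of all features. That gene was Trf, which encodes the iron carrier transferrin, at 0.80, 1.11 and 0.92 (mean 0.94 ± 0.16, SD, n = 3, limma adjusted p = 0.031). The transferrin receptor Tfrc had a mean of 0.74 and did not pass (limma adjusted p = 0.079), nor did the metallothionein Mt1, at 0.54 (limma adjusted p = 0.079).

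None of the 19 mitochondrial carriers of the Slc25 family passed, against 6.94% of all features (limma, with 2 above and 2 below 0 before adjustment). A class this small cannot show a share below that. Their median was -0.14, and 5 of 19 means (26.3%) were above 0, against 51.4% of all features. Array 3, with the dyes exchanged, did not share this lean. Its class median lay at 0.05, while arrays 1 and 2 gave -0.19 and -0.15. Of the 19 genes, 6 were below 0 and 4 above 0 on every array, and in 7 the sign followed the dye. Slc25a37, mitoferrin-1, which brings iron into mitochondria, had -0.80, -0.78 and -0.24 with a mean of -0.61 ± 0.32 (SD, n = 3, limma adjusted p = 0.12). The dicarboxylate carrier Slc25a10 was at -0.83, -0.82 and 0.05, low on arrays 1 and 2 only. Both passed without array 3 (limma adjusted p = 0.045 and 0.043). The ADP/ATP carriers Slc25a4 and Slc25a5 had means of -0.15 ± 0.14 and -0.11 ± 0.33 (SD, n = 3 each). On the positive side stood the glutamate carrier Slc25a22, at 0.52 ± 0.23, the ATP-magnesium/phosphate carrier Slc25a25, at 0.43 ± 0.26, and the pyrimidine nucleotide carrier Slc25a33, at 0.31 ± 0.14 (SD, n = 3 each). Each of these 3 was above 0 on every array, and none passed (limma adjusted p = 0.13, 0.19 and 0.25).

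The largest class, with 22 genes for bicarbonate, sulfate, phosphate, dicarboxylates and related anions, held Slc34a2 as its 1 gene that passed. Of all features 6.94% passed. Of the other phosphate importers, Slc20a1 had 0.26, 0.61 and 0.55 (mean 0.47 ± 0.18, SD, n = 3, limma adjusted p = 0.13) and its relative Slc20a2 had a mean of -0.11 ± 0.10 (SD, n = 3). Slc13a1, a sodium-sulfate cotransporter of kidney, had -2.15, -2.67 and 0.02. The mean of -1.60 ± 1.43 (SD, n = 3) is the next lowest after Slc43a1, but array 3 did not share it, and the gene did not pass (limma adjusted p = 0.18). It passed without array 3 (limma adjusted p = 0.029), where the dye and the RNA cannot be told apart. Slc26a11, a sulfate transporter, was above 0 on all 3 arrays, at 0.49 ± 0.16 (SD, n = 3, limma adjusted p = 0.12).

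Of 8 carriers of sodium, protons, calcium and chloride with a cation, 0 passed, against 6.94% of all features (limma, with 1 above 0 before adjustment). Slc12a7, the potassium-chloride cotransporter KCC4, led this class with 0.43, 0.48 and 0.56 (mean 0.49 ± 0.06, SD, n = 3, limma adjusted p = 0.0996). Proteins known to act on these and other carriers were measured beside them. Stk39, the kinase SPAK, which phosphorylates cation-chloride cotransporters, had 0.89, 1.54 and 1.53 and was higher (mean 1.32 ± 0.37, SD, n = 3, limma adjusted p = 0.031). It was the 1 gene that passed of 9 measured chaperones and membrane regulators, whose median was 0.06. Of 3 genes of the sodium-potassium ATPase measured of 8 listed, 2 were higher and both encode regulatory FXYD proteins. This pump maintains the sodium gradient, and none of its catalytic alpha chains was among the 3. Fxyd2 had 1.36, 2.72 and 2.79 (limma adjusted p = 0.031) and Fxyd5 had 0.75, 0.80 and 1.25 (limma adjusted p = 0.042). The pump's beta chain Atp1b3 had a mean of 0.52 and did not pass (limma adjusted p = 0.089).

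Each of the 7 carriers of vitamins and choline had a mean above 0, against 51.4% of all features, and the class median was 0.16. Slc46a3 was the 1 that passed, where 6.94% of all features did. Only 2 of the 7 were above 0 on all 3 arrays, and in 4 array 3 opposed the others. The folate carriers Slc19a1 and Slc46a1 were at 0.16 ± 0.35 and 0.07 ± 0.24 (SD, n = 3 each), both above 0 on arrays 1 and 2 and below 0 on array 3. Slc44a2, a choline transporter-like protein, had 0.45, 0.30 and 0.75 (mean 0.50 ± 0.23, SD, n = 3, limma adjusted p = 0.13).

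Carriers of nucleosides and nucleotide sugars had 3 genes each. In either class 0 passed, against 6.94% of all features (limma, with 1 above 0 in each before adjustment). Slc28a2, a sodium-coupled importer of purine nucleosides, had 0.47, 0.52 and 0.61 (mean 0.53 ± 0.07, SD, n = 3, limma adjusted p = 0.083), while the equilibrative transporter Slc29a1 had -0.60, -0.30 and 0.13. Slc35a1, which brings CMP-sialic acid into the Golgi, had 0.54, 0.78 and 0.47 (mean 0.59 ± 0.16, SD, n = 3, limma adjusted p = 0.079). Slc35a2, which carries UDP-galactose, had a mean of -0.31 ± 0.25 (SD, n = 3).

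The smaller classes were represented by few genes. Slc14a1, the urea transporter UT-B, had 0.86, 0.86 and 0.39 (mean 0.71 ± 0.27, SD, n = 3, limma adjusted p = 0.077). Slc16a7, the monocarboxylate transporter MCT2, had 0.08, 0.14 and 0.02 (limma adjusted p = 0.74). Among 5 carriers of fatty acids and acetyl-CoA, 0 passed, against 6.94% of all features (limma, 0 before adjustment as well). There Slc27a5, a liver enzyme of bile acid activation, had the largest moderated t, with -0.39, -0.07 and -0.73. Of 10 carriers of organic ions and bile acids, Slc22a17 was the 1 that passed. Slc22a2, an organic cation transporter of kidney, had 1.47, 0.13 and 0.42, so that its mean of 0.67 ± 0.70 (SD, n = 3, limma adjusted p = 0.25) rests largely on array 1.

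In many members array 3, the only array with the dyes exchanged, opposed the others. In 55 of 133 genes (41.4%) the ratio had the same sign by dye on all 3 arrays, so that array 3 had the other sign once all were read as CD69hi over Zap70-/-. Over all features this share was 30.8%. In 57 genes (42.9%, against 47% of all features) the ratio had the same sign by RNA on all 3 arrays, and 21 fell in neither set. No test of the difference between these shares was made. A fit with a dye term called 0 features for the dye (limma, 2161 before adjustment). An effect of the dye and a peculiarity of array 3 cannot be told apart.

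The members in which array 3 opposed the others included several that are best known outside the immune system. They also included Slc7a5, Slc25a5, Slc29a1 and Slc11a1, and the share of either kind was not counted. In the Slc6 family of neurotransmitter, creatine and amino acid carriers array 3 opposed the others in 7 of 9. Of these 9 genes 0 passed, against 6.94% of all features (limma, with 0 above and 1 below 0 before adjustment). Slc6a2, the noradrenaline transporter, had 0.12, 0.11 and -1.20, and Slc6a12, which carries betaine and GABA, had 0.02, 0.29 and -1.28. Slc4a10, a bicarbonate transporter of brain, had 0.86, 0.42 and -1.05. In the opposite sense, Slc22a6, an organic anion transporter of kidney, had -0.27, -0.20 and 1.55, and Slc26a3, a chloride-bicarbonate exchanger of gut, had -0.24, -0.18 and 1.24. In each of these 5 genes array 3 lay farthest from 0. With a dye term in the model, the ratios of Slc6a2 and Slc22a6 were -0.54 and 0.66. Each took the sign of array 3, against arrays 1 and 2. No p-value is given for them, since that fit leaves only the spread between arrays 1 and 2. Slc6a8, the creatine transporter, had -0.43, -0.20 and 0.72, again with array 3 opposed. The 6 genes that passed had the same sign by RNA on all 3 arrays.

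**Figure D4:**
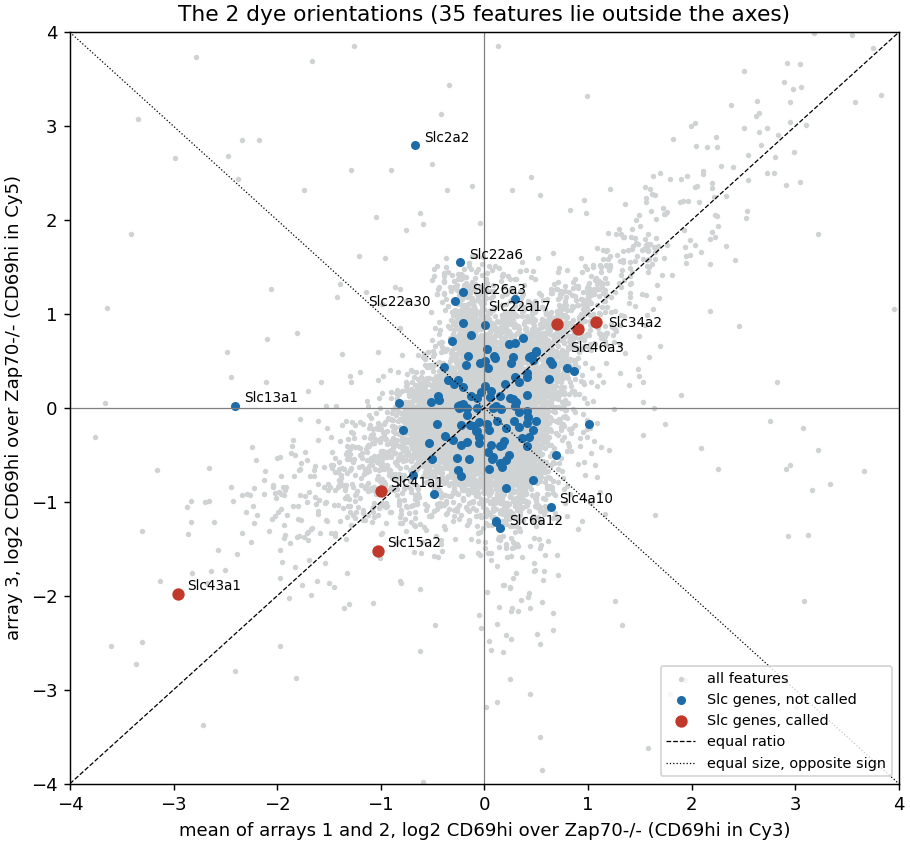
Each point is a feature, with the mean log2 ratio of CD69hi over Zap70-/- RNA on arrays 1 and 2 (x axis, CD69hi in Cy3) against that on array 3 (y axis, CD69hi in Cy5). Grey points are all features, blue the 127 members that did not pass and red the 6 that did, which have the same sign on both axes. The dashed line marks equal ratios, and Slc43a1 lies off it, at -2.96 on arrays 1 and 2 and -1.98 on array 3. Genes such as Slc4a10 and Slc6a12 lie in the quadrants of opposite sign.

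Of the members, 7 had 2 probes each, and these were averaged. Their probe means differed by 0.04 (Slc4a4) to 0.42 (Slc66a1), and no pair spanned more than 1 on the log2 scale. The 2 probes of Slc39a14 had means of 0.65 and 0.42, both above 0 on all 3 arrays. Those of Slc17a5, a lysosomal sialic acid exporter, differed in sign, at 0.29 and -0.08. None of the 9 probes annotated with a solute carrier and another gene passed, and their lowest limma adjusted p was 0.15.

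Genes with symbols of the ABC transporter family were measured beside the solute carriers and not tested against them. Most encode membrane carriers that pump substrates with ATP. Abce1, Abcf1, Abcf2 and Abcf3 are counted among them although they are not carriers. Of 28, 2 were higher and 0 lower (limma, with 6 above and 2 below 0 before adjustment), with a median of 0.06. The shares of all features were 4.13% higher and 2.81% lower. Abcc10 had 1.23, 1.42 and 0.99 (mean 1.21 ± 0.21, SD, n = 3, limma adjusted p = 0.023). Abcc1, the multidrug resistance protein MRP1, had 0.69, 0.87 and 0.85 (mean 0.80 ± 0.10, SD, n = 3, limma adjusted p = 0.038). Of 11 subunits of the vacuolar ATPase, which acidifies lysosomes, 0 passed (limma; before adjustment, 0 above and 1 below 0), with a median of -0.07.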

How the data were processed

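The deposited table holds 1 ratio per probe and array, which the authors had already normalized. How they did so is not stated in the sources used here. Its values were taken as log2 ratios of Cy5 over Cy3, since the labels give the dye of each RNA but the deposited table gives neither base nor direction. Of 9596 probes, 7486 have 1 gene symbol, 483 several and 1627 none, and 7395 of the 7486 were found in a RefSeq gene table, which changed 0 symbols. Probes of a symbol were averaged, giving 8905 features. Arrays 1 and 2 were multiplied by -1, and the mean over 3 arrays was tested against 0 with limma 3.58.1 in R 4.3.3 (lmFit, eBayes, Benjamini-Hochberg adjustment over all features, threshold 0.05). The fit had 2 residual and 2.75 prior degrees of freedom. An exact permutation test of 1 gene on 3 arrays cannot go below p = 0.25.

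Named members are those that passed, the member with the largest moderated t in each class where none passed, members whose probe means span more than 1, and the 5 others with the largest mean. Of each companion list up to 4 genes that passed are named, and other names were added after values were seen. The members and lists were chosen with earlier results of these data known. Alternatives left out each array, added a dye term, scaled the arrays, used robust shrinkage, kept probes apart, left out ratios beyond 4, kept named genes only, or left array 3 unturned. Dim spots could not be left out, since spot brightness was not used here. The 3 arrays limit the precision, and spotted cDNA probes can bind related transcripts.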

Additional observations from a re-analysis of the deposited data

How the results depend on the processing

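The counts depended strongly on single arrays. Leaving out an array in turn gave 95 to 283 features higher and 24 to 409 lower over the whole table, and 0 to 3 solute carrier genes higher and 1 to 6 lower. Without array 1, 0 members were higher and 1 lower (limma; before adjustment, p was 0.05 or less for 9 above and 5 below 0). Without array 2, 1 was higher and 1 lower, of which Slc43a1 is among the 6 of the report and Slc2a2 is not. Without array 3, 3 were higher and 6 lower, 4 of them among the 6 and 5 others. When the fit held a dye term, 562 features were higher and 514 lower, and 6 members were higher and 7 lower, which included the 6 of the report and 7 others. With array 3 left unturned, 0 features were higher and 0 lower, members included (limma; 342 features and 5 members before adjustment). There the mean of Slc27a5 changed sign, at 0.089. With the arrays scaled to the same spread, 2 members were higher and 3 lower. Robust shrinkage, probes kept apart, extreme ratios left out and named genes only each kept the same 6 members. Where a count moved, the cause was not tested. In the fit with a dye term array 3 is matched exactly, so its p-values measure only the spread between arrays 1 and 2. The larger counts of that fit are therefore not a better reading of the RNA difference. Without array 3, CD69hi RNA carries Cy3 on every array, so dye and RNA cannot be told apart there. No paired analysis was possible beyond the ratio itself, because each array already pairs both RNAs.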
